A study of Mus musculus with 6 samples.

Results

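Semaphorins and their plexin and neuropilin receptors were compared between the lower molar tooth germ and oral tissue of the mouse mandible. The genes were those of the array annotation with the symbols of semaphorin classes 3 to 7, of A to D plexins and of both neuropilins. This gave 30 of the 19057 genes measured, namely 19 semaphorins, 9 plexins and 2 neuropilins. Sema5b, the remaining such symbol among 31 in RefSeq, was not analysed here. All libraries came from embryos of the outbred stock CD-1 at day 13.5, and the labels name no mutant allele and no treatment. There were 3 libraries titled tooth germ and 3 titled oral tissue. Each pooled tissue from several embryos. Equal numbers mark a shared litter, so that the 6 arrays form 3 pairs.

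The labels contradict each other. The 3 libraries that are tooth germ by title and description are oral tissue by source name and tissue field, and the other 3 the reverse. The names below follow the titles, and every sign turns if the source names are right. The marker lists gave the following. Of 11 genes of dental mesenchyme, the condensed cells around the tooth bud, 5 were higher in the libraries titled tooth germ, 0 were lower and 6 were not called. Of 11 skeletal muscle genes, 10 were lower in these libraries and 1 was not called. All values are signals on the deposited log2 scale, one probe per gene, and the arrays had been quantile normalized by the authors, with a median of 7.01 over all values. Whether that scale is a plain log2 or a variance-stabilising transformation is not stated, so the folds given, computed as for a plain log2, are nominal. Precision is limited by there being 3 arrays per tissue.

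Semaphorins are secreted or membrane-bound guidance cues for axons, vessels and migrating cells. Class 3 semaphorins are secreted and mostly bind a neuropilin, which holds the ligand, joined to an A plexin, which carries the signal into the cell. Semaphorins of the membrane classes mostly bind plexins directly. Plexins act inside the cell on small GTPases and so on actin and adhesion. In the mouse molar, Sema3a made by the mesenchyme around the bud is known to repel trigeminal axons and to time the arrival of nerves.

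In the libraries titled tooth germ the secreted ligand Sema3a was higher, and its receptor component Nrp1, the A plexin Plxna2 and the semaphorins Sema6b, Sema5a and Sema3c were lower. Of the 30 genes 1 rose, 5 fell and 24 were not called (limma, adjusted p under 0.05). Over all genes 5.81% were called, 2.39% as higher and 3.42% as lower. The median log2 difference of the 30 genes was -0.030, against 0.0026 over all genes. With the litter as a block, 3 of the 30 rose and 7 fell, the further genes being Sema4a and Sema7a (higher) and Sema3b and Sema3f (lower). In that fit 8.88% of all genes were called, 3.86% as higher and 5.02% as lower. The number called was 3 without tooth germ library 2, without oral tissue library 3 or without both libraries of litter 2, and those 3 were Nrp1, Plxna2 and Sema6b each time. Fewer of all genes were called too in these fits. The signals of the groups did not overlap for 15 of the 30 genes, 5 higher and 10 lower in tooth germ. The same held for 23.1% of all genes, 11.9% higher and 11.2% lower. All 3 pairs had the same sign for 17 of the 30 genes and for 41.3% of all genes. In pooled tissue, fewer cells of a type and less RNA per cell cannot be told apart.

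**Figure D1:**
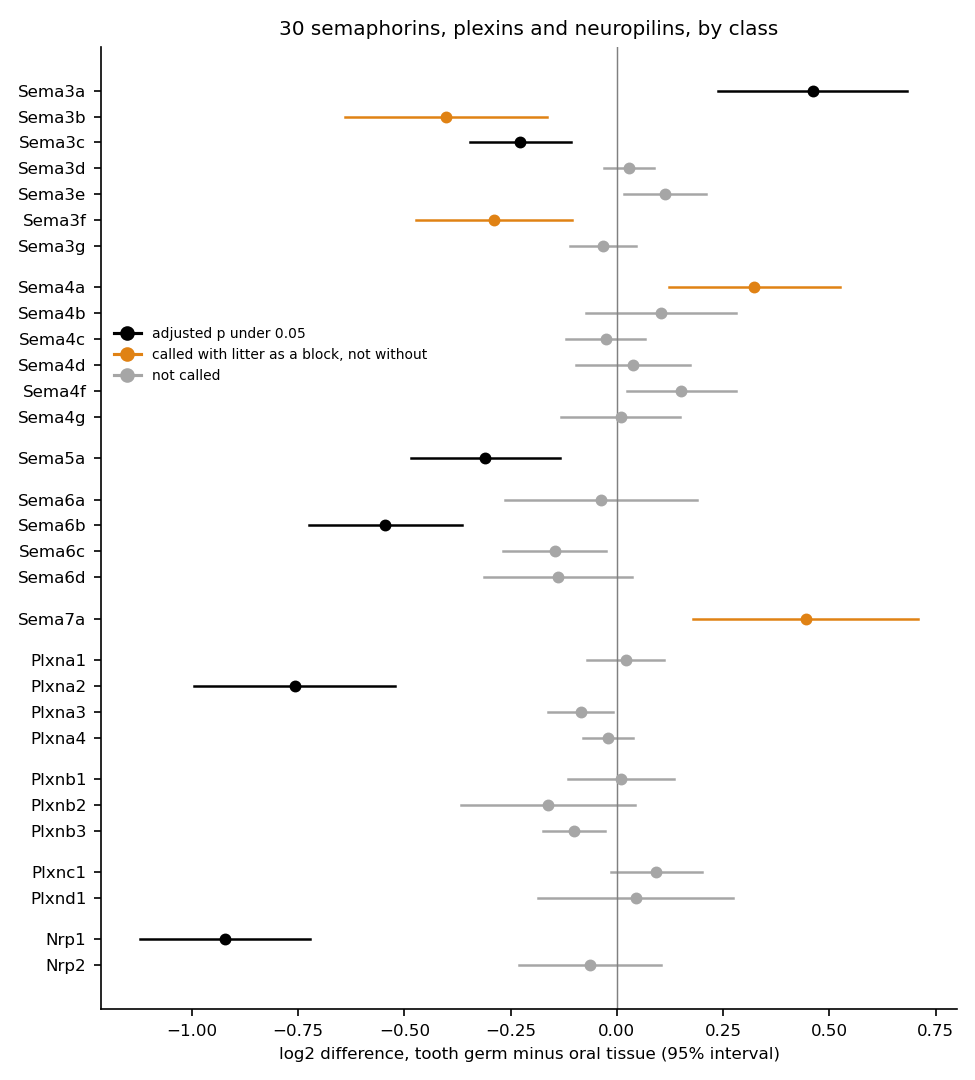
Log2 difference (tooth germ minus oral tissue) of each of the 30 genes with its 95% interval from limma, grouped by class. Black marks the 6 genes called in the fit without litter, orange the 4 called with litter as a block but not in that fit, and grey the other 20. Nrp1 (-0.92), Plxna2 (-0.76) and Sema6b (-0.55) lie farthest to the left, and Sema3a (0.46) and Sema7a (0.44) farthest to the right.

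Promoter sequence is shown for the called gene that rose and for the 3 with the largest fall, to set side by side the DNA before the start sites of genes that moved in opposite directions. Each line gives the 250 bases before the RefSeq start site on the GRCm38.p6 assembly, 5′ to 3′ on the gene's strand. The windows are chr5:13396534-13396783 (plus strand) for Sema3a, chr8:128358823-128359072 (plus strand) for Nrp1, chr1:194619579-194619828 (plus strand) for Plxna2 and chr17:56140344-56140593 (minus strand) for Sema6b, whose table lists 2 starts, of which the outermost is shown. Capitals mark any match, on either strand, to the TATA box TATAAA, the CCAAT box CCAAT, the GC box GGGCGG, the E-box CAGCTG, the homeodomain core TAATTG, the Lef/Tcf core CTTTGA or the Ets core GGAAGT.
Sema3a: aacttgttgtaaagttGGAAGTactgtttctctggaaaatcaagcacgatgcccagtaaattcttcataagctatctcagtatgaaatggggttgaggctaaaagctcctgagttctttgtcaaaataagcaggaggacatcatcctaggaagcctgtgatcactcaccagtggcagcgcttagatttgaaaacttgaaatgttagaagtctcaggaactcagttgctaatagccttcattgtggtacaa
Nrp1: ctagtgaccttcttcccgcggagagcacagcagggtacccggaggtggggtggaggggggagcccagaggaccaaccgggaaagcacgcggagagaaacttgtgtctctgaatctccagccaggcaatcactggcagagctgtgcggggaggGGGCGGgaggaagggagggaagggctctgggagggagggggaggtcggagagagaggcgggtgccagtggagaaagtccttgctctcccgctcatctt
Plxna2: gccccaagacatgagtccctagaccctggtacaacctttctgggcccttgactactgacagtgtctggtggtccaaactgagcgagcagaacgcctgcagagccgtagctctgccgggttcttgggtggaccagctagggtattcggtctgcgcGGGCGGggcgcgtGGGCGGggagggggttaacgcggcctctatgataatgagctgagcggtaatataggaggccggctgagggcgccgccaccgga
Sema6b: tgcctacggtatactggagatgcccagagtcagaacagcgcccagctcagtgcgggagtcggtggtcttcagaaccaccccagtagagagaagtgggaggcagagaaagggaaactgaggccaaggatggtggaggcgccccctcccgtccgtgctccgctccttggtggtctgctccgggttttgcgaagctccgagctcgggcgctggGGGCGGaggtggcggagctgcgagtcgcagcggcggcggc
Sema3a, which was higher in tooth germ, has a window of 40.8% G and C with no GC box and 1 Ets core at -234 from the start. In the windows shown, Nrp1 (64.4% G and C), Plxna2 (62.8%) and Sema6b (66.0%), which were lower, hold 1, 2 and 1 GC boxes and none of the other motifs. The window of the other Sema6b start, not shown, has 59.2% G and C. It holds a GC box, a CCAAT box and an Ets core. The table matched 25 of the 30 genes with 36 windows, whose G and C share had a median of 63.8% and ran from 40.8% to 78.4%, against a median of 52.4% over all 32851 windows. The GC box is in 27 of the 36 windows and in 32.7% of all windows, and the TATA box in 0 of 36 and in 12.4%. The CCAAT box is in 7 of the 36 and in 33.8% of all, the Ets core in 7 and 19.7%, the E-box in 6 and 13.0%, the Lef/Tcf core in 2 and 13.8%, and the homeodomain core in 1 and 7.17%. Among the further genes called as higher with litter as a block, Sema7a has a GC box in its window of 66.4% G and C. Sema4a has a GC box in its windows of 59.6%, 64.0% and 56.4% but not in that of 58.0%. The lower genes Sema5a (72.0%) and Sema3c (78.4%) hold a GC box too. Whether a motif goes with the direction of a difference was not tested, and only 1 gene shown was higher. These matches describe letters only, and the array did not measure factor binding.

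Among the 7 secreted class 3 ligands, Sema3a rose, Sema3c fell and 5 were not called. Sema3a, the repellent of sensory axons, had signals of 9.81, 9.93 and 9.54 in tooth germ libraries 1 to 3, against 9.29, 9.36 and 9.25 in oral tissue libraries 1 to 3. The groups did not overlap, and tooth germ was higher in every pair, by 0.52, 0.57 and 0.30 on the log2 scale. The mean difference was 0.46 (SE 0.10, limma adjusted p = 0.0193), or 1.38-fold, and the blocked fit gave an adjusted p of 0.0023. The difference was 0.26 as the mean of both probes. The call of Sema3a was lost in 7 of 20 alternatives, with an adjusted p between 0.0023 and 0.202.

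Sema3c, a ligand known for guiding neural crest cells into the cardiac outflow tract, read 6.90, 6.94 and 7.0 in tooth germ and 7.06, 7.19 and 7.28 in oral tissue. The groups were apart, but all 6 values lie near the median of all values, where a fold may be understated. The log2 difference was -0.23 (SE 0.055, limma adjusted p = 0.0307), and -0.68 after a background was subtracted from the linear signals. The call of Sema3c was lost in 8 of 20 alternatives. Sema3b, a ligand first known as a candidate tumour suppressor, read 7.78, 7.33 and 7.59 in tooth germ, against 7.81, 8.08 and 8.02 in oral tissue. Its pair differences of -0.03, -0.75 and -0.43 had 1 sign but uneven size, with litter 1 showing almost none (mean -0.40, SE 0.11, limma adjusted p = 0.054, and 0.0347 with litter as a block). Sema3f, which acts through Nrp2, read 11.07, 11.01 and 11.22 in tooth germ and 11.49, 11.35 and 11.33 in oral tissue. Every tooth germ value of Sema3f lay below every oral tissue value, and the log2 difference was -0.29 (SE 0.084, limma adjusted p = 0.0749, and 0.0368 with litter as a block). The remaining class 3 genes were dim and not called in either fit. Sema3e, the ligand of Plxnd1, differed by 0.11 (95% interval 0.02 to 0.21), Sema3d by 0.03 (-0.03 to 0.09) and Sema3g by -0.03 (-0.11 to 0.05).

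Of the 12 membrane semaphorins, 2 fell, 0 rose and 10 were not called. The differences were positive for 5 of 6 class 4 genes and negative for all 4 class 6 genes, but most were small and not called. Over all genes 9866 of 19057 differences were positive. Sema6b, a class 6 ligand of A plexins, had signals of 7.56, 7.50 and 7.57 in tooth germ, against 8.23, 7.92 and 8.11 in oral tissue. The tooth germ libraries lay close together and below all 3 oral tissue libraries. The log2 difference was -0.55 (SE 0.082, limma adjusted p = 0.0017), with oral tissue 1.46-fold higher. It was called in all 20 alternatives, and its size was -0.91 after background subtraction and -0.21 as the mean of its 3 probes. Sema6c and Sema6d differed by -0.15 (95% interval -0.27 to -0.02) and -0.14 (-0.31 to 0.04), and Sema6a by -0.04 (-0.26 to 0.19), without a call. The further Sema6a probes had the other sign, at 0.04 to 0.11, also without a call.

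Sema5a, a membrane semaphorin with thrombospondin repeats that can attract or repel axons, read 11.44, 11.22 and 11.37 in tooth germ and 11.71, 11.64 and 11.61 in oral tissue. The groups did not overlap, and the pair differences were -0.27, -0.42 and -0.25 on the log2 scale. The mean difference was -0.31 (SE 0.080, limma adjusted p = 0.0434, and 0.0143 with litter as a block). The call of Sema5a was lost in 12 of 20 alternatives, among them every one that left out a library or a litter, and the difference was -0.09 as the mean of its 5 probes.

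A pair of further membrane ligands, Sema7a and Sema4a, were not called without litter in the fit and were called as higher with litter as a block. Sema7a was called in 5 and Sema4a in 3 of 20 alternatives. Sema7a, a lipid-anchored semaphorin that promotes axon growth through integrins, read 8.33, 8.27 and 7.80 in tooth germ, against 7.79, 7.61 and 7.68 in oral tissue. Tooth germ library 3 of Sema7a was hardly above the highest oral tissue library, and the pair differences were 0.54, 0.66 and 0.13 (mean 0.44, SE 0.12, limma adjusted p = 0.0563, and 0.0094 with litter as a block). Sema4a, a class 4 ligand also known from T cells and the retina, read 9.68, 9.71 and 9.97 in tooth germ and 9.50, 9.46 and 9.43 in oral tissue. Its tooth germ library 3 stood above the other two, and the log2 difference was 0.32 (SE 0.091, limma adjusted p = 0.0669, and 0.0313 with litter as a block). The other 5 class 4 genes were not called. Sema4f (0.15, 95% interval 0.02 to 0.28), Sema4b (0.10, -0.07 to 0.28), Sema4d (0.04, -0.10 to 0.17), a ligand of Plxnb1, and Sema4g (0.01, -0.13 to 0.15) were positive and Sema4c, a ligand of Plxnb2, negative (-0.03, -0.12 to 0.07).

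**Figure D2:**
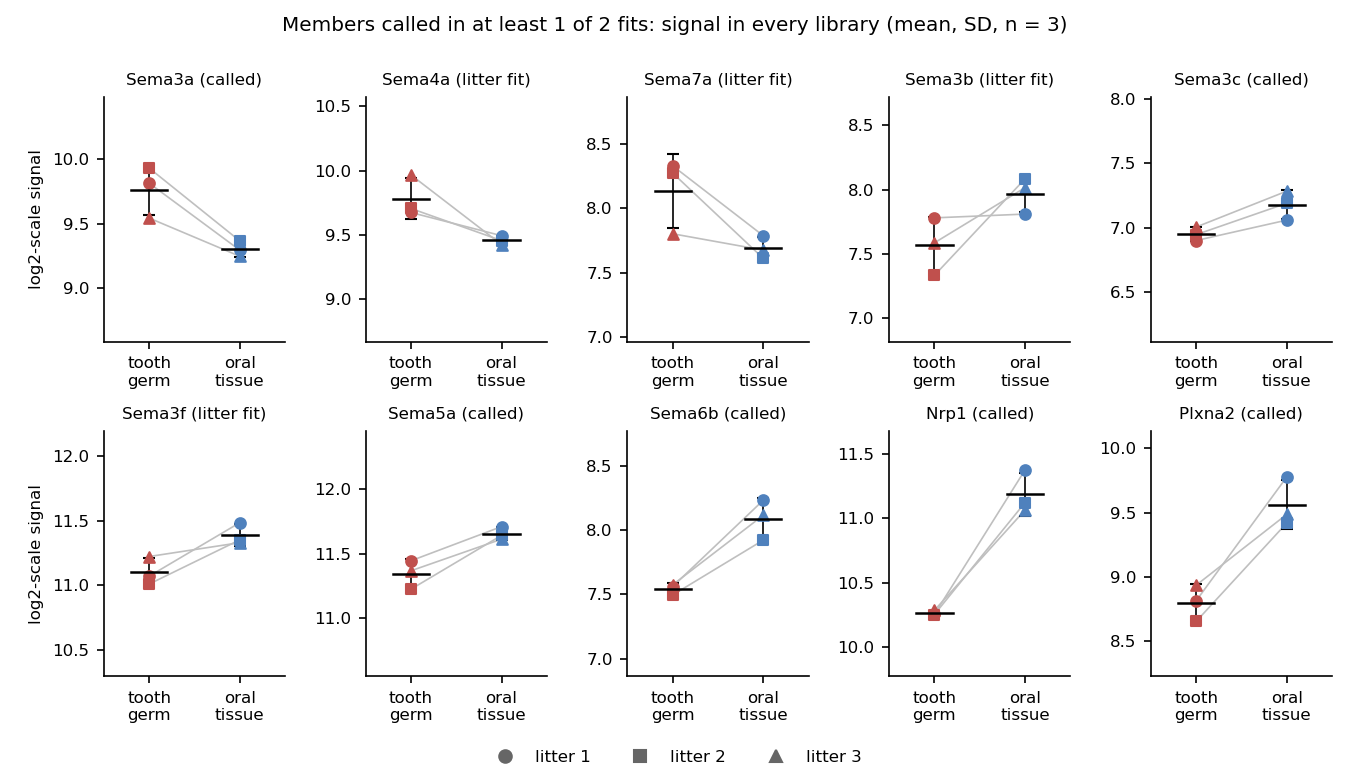
Signal of the 10 genes called in either fit in each library on the deposited log2 scale, tooth germ left and oral tissue right, with grey lines joining libraries of 1 litter and bars giving mean and SD (n = 3). Every panel spans the same range on the log2 scale. Nrp1 shows the widest gap, with tooth germ at 10.25 to 10.29 and oral tissue at 11.06 to 11.38, and in no panel do the groups overlap.

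Among the 11 receptors, Nrp1 and Plxna2 fell, 0 rose and 9 were not called, with and without litter as a block. Nrp1, the co-receptor of Sema3a that also binds VEGF on endothelium, had signals of 10.26, 10.25 and 10.29 in tooth germ, against 11.38, 11.12 and 11.06 in oral tissue. The 3 tooth germ libraries were nearly equal, and oral tissue library 1 was the highest. Nrp1 averaged 10.26 ± 0.018 in tooth germ and 11.19 ± 0.17 in oral tissue (SD, n = 3). Its log2 difference was -0.92 (SE 0.091, limma adjusted p = 9.3e-05) with oral tissue 1.90-fold higher. The difference lay between -0.99 and -0.82 over 20 alternatives, all of them with a call.

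Nrp2, the co-receptor of Sema3f, read 7.81, 7.60 and 7.57 in tooth germ and 7.76, 7.65 and 7.76 in oral tissue. These values overlapped, and the log2 difference of -0.06 had a 95% interval of -0.23 to 0.10, which does not reach that of Nrp1 (-1.12 to -0.72). That interval applies to the compressed scale of a probe of low signal, and with a background subtracted the difference of Nrp2 was -0.12.

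Plxna2, an A plexin that pairs with neuropilins and also binds class 6 semaphorins, read 8.82, 8.65 and 8.94 in tooth germ, against 9.78, 9.42 and 9.49 in oral tissue. All tooth germ values were below all oral tissue values, with pair differences of -0.96, -0.76 and -0.55. The mean difference was -0.76 (SE 0.11, limma adjusted p = 0.0012), with oral tissue 1.69-fold higher. It was called in all 20 alternatives, in which it lay between -0.90 and -0.26, the smallest size being the mean of its 3 probes. The other A plexins, Plxna1 (0.02, 95% interval -0.07 to 0.11), Plxna3 (-0.09, -0.16 to -0.01) and Plxna4 (-0.02, -0.08 to 0.04), had signals between 6.84 and 7.08 in all libraries, close to the median of all values, so that their differences may be understated.

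The B, C and D plexins gave no call in either fit. Plxnb2, a receptor of class 4 semaphorins, read 9.91, 9.75 and 10.06 in tooth germ and 10.15, 9.99 and 10.06 in oral tissue, overlapping groups with a log2 difference of -0.16 (95% interval -0.37 to 0.04). Plxnd1, the Sema3e receptor of endothelium, read 10.16, 10.10 and 10.43 in tooth germ, against 10.03, 10.26 and 10.27 in oral tissue. These groups overlapped too, and the difference of 0.04 had an interval of -0.18 to 0.27. Plxnb1, the Sema4d receptor, differed by 0.01 (-0.11 to 0.13), Plxnc1, a receptor of Sema7a, by 0.09 (-0.01 to 0.20) and the dim Plxnb3, a receptor of Sema5a, by -0.10 (-0.17 to -0.03). Plxnb3 was called in 1 of the 19 alternatives that kept it.

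Ligands and receptors known to bind each other can be read side by side. Sema3a was higher while Nrp1 was lower in the same tooth germ libraries. Sema6b and Plxna2 were both lower. Sema3f was called as lower with litter as a block and in 4 of 20 alternatives in all, and its co-receptor Nrp2 was called in none. Sema7a was called as higher with litter as a block, and Plxnc1 was called in no alternative. Whether ligand and receptor RNA came from the same cells was not measured.

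Several probes measured 21 of the 30 genes, 79 probes in all, and each was also tested alone with adjustment over all probes. For Nrp1 all 3 probes were called as lower. The second Nrp1 probe read 10.23, 10.18 and 10.30 in tooth germ and 11.16, 11.02 and 11.05 in oral tissue (log2 difference -0.84), and the third 7.83, 7.88 and 8.03 against 8.38, 8.73 and 8.69 (-0.69). For Plxna2 and Sema6b the 2 further probes each had mean signals of 6.74 to 7.01, near or below the median of all values, and differed by -0.06 to 0.02. The second Sema3a probe was as dim (mean 6.97, difference 0.06). The second bright probe of Sema5a, with a mean of 11.11, differed by -0.19 and was not called, and the second bright probe of Sema3f (mean 10.78) differed by -0.31 and was not called. A second Sema3b probe was called at -0.21 (limma adjusted p = 0.0329), whereas the brightest had an adjusted p of 0.0504 over all probes. The brightest Plxnd1 probe and its 2 further probes differed by 0.04, 0.20 and 0.11, without a call.

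**Figure D3:**
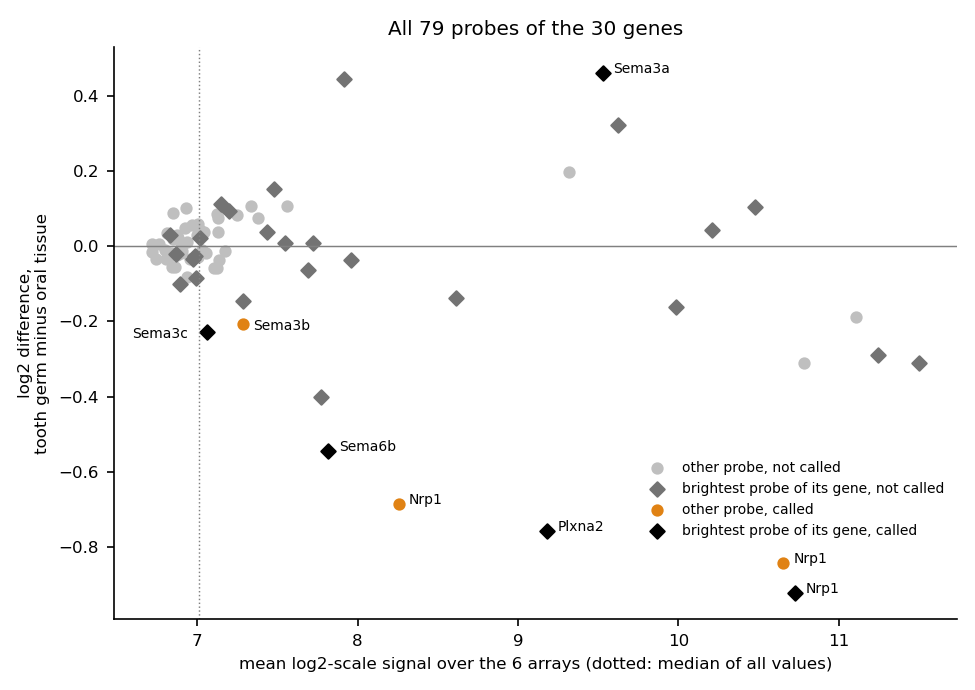
Log2 difference (tooth germ minus oral tissue) of all 79 probes against their mean signal over the 6 arrays on the deposited log2 scale, with calls adjusted over all probes, under which Sema5a was not called. Diamonds are the brightest probe of each gene, and the dotted line is the median of all values (7.01). Most probes near that line differ by little, and the 3 Nrp1 probes lie at -0.92, -0.84 and -0.69.

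Markers of several cell types also differed between the tissues. The mean signal of the 11 skeletal muscle genes was 9.25, 9.02 and 9.08 in tooth germ, against 11.14, 10.46 and 10.90 in oral tissue, and Myf5 was below the median of all values. The 10 neuronal genes averaged 7.32, 7.36 and 7.25 in tooth germ and 8.25, 7.66 and 7.86 in oral tissue, where 3 fell and 7 were not called (6 fell with litter as a block), and Tubb3, Nefl, Elavl4 and Snap25 were below the median of all values. Oral tissue library 1 was highest and library 2 lowest for both lists, and the same order of oral tissue libraries held for Sema6b and Plxna2. Nrp1 and Sema5a were also highest in library 1 but lowest in library 3, and Sema3c ran the other way, with library 1 lowest and library 3 highest. The tooth germ libraries were ordered otherwise. There the muscle list was highest in library 1 and lowest in library 2, and the neuronal list highest in library 2 and lowest in library 3. Sema6b and Plxna2 were highest in tooth germ library 3 and lowest in library 2. Orders of only 3 libraries can match or differ by chance, and some spreads were small, such as 7.50 to 7.57 for Sema6b in tooth germ. Whether these orders are related was not tested.

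The 10 endothelial genes were all above the median of all values and averaged 9.17, 9.16 and 9.20 in tooth germ, against 9.28, 9.34 and 9.46 in oral tissue, with 1 lower and 9 not called (2 lower with litter as a block). Of 8 tendon and connective tissue genes 5 fell, with means of 9.26 to 9.36 in tooth germ and 9.83 to 9.97 in oral tissue, and only Tnmd was below the median of all values. Of 9 macrophage and leukocyte genes 6 fell, with means of 7.82 to 7.91 in tooth germ and 8.06 to 8.27 in oral tissue, where Ptprc and Fcer1g were below that median. Of 5 Schwann cell and glial genes 1 fell, with means of 7.29 to 7.36 in tooth germ and 7.44 to 7.69 in oral tissue, and Erbb3, Foxd3 and Fabp7 were below it. The part of these cell types in the lower signal of Nrp1, Plxna2, Sema6b, Sema5a and Sema3c was not tested.

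Beside the higher signal of Sema3a, the 11 dental mesenchyme genes averaged 9.79, 9.85 and 9.67 in tooth germ and 8.93, 9.29 and 9.15 in oral tissue. In tooth germ both this list and Sema3a were highest in library 2 and lowest in library 3. In oral tissue both were also highest in library 2, but the list was lowest in library 1 and Sema3a in library 3. Of 11 dental epithelium genes 6 rose and 1 fell, with means of 7.89 to 7.98 in tooth germ and 7.56 to 7.64 in oral tissue. Of 12 surface epithelium genes 7 rose and 1 fell, with means of 10.23 to 10.36 in tooth germ and 9.68 to 9.85 in oral tissue. Msx2 and Fgf3 of the mesenchyme list, Fgf20, Edar and Bmp2 of the dental epithelium list and Epcam of the surface list were below the median of all values. Of 9 cartilage genes 1 rose, with means of 7.71 to 7.86 in tooth germ and 7.77 to 7.79 in oral tissue, and Matn1, Matn3, Comp and Snorc were below that median. The part of these cell types in the higher signal of Sema3a was not tested.

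**Figure D4:**
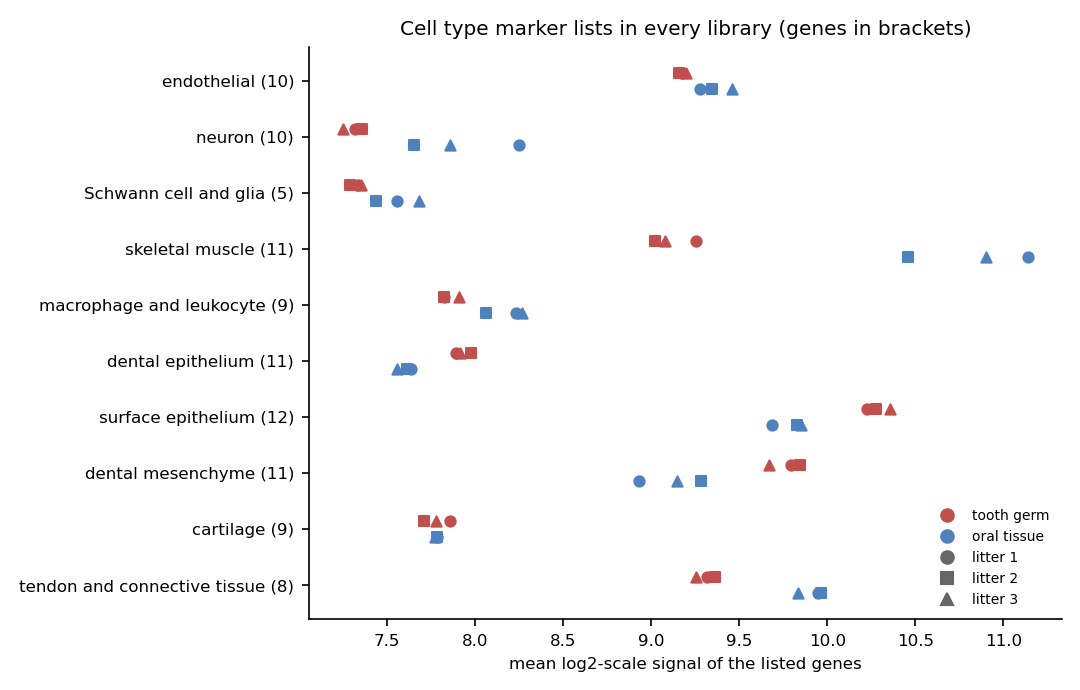
Mean signal of each cell type marker list in every library on the deposited log2 scale, with tooth germ (red) drawn above oral tissue (blue) and the marker shape giving the litter. The skeletal muscle list differs most, at 9.02 to 9.25 in tooth germ and 10.46 to 11.14 in oral tissue, while the cartilage list overlaps.

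Genes that act with semaphorin receptors were called at 4 of 41, beside 5.81% of all genes. Of these 17 ligands, receptors and co-receptors and 24 intracellular genes, 3 rose and 1 fell, while 37 gave no call. The blocked fit gave equal counts, beside 8.88% of all genes called in that fit, 3.86% as higher and 5.02% as lower. The median log2 difference of the 41 genes was -0.026. Dpysl4, a collapsin response mediator of the family that carries Sema3a signals in axons, read 9.63, 9.44 and 9.52 in tooth germ, against 10.31, 10.03 and 10.03 in oral tissue. These groups lay apart, with a log2 difference of -0.59 (SE 0.096, limma adjusted p = 0.0028), and the call held in all 20 alternatives, with a difference of -0.27 as the mean of its probes. Of its relatives, Crmp1 (-0.21, adjusted p = 0.159), Dpysl3 (-0.25, adjusted p = 0.158), Dpysl2 (-0.11) and Dpysl5 (0.19) were not called by limma.

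Limk2, a kinase that inactivates the actin-severing protein cofilin, read 9.92, 10.04 and 10.04 in tooth germ and 9.63, 9.73 and 9.47 in oral tissue. It was higher in every tooth germ library (log2 difference 0.39, SE 0.088, limma adjusted p = 0.023), and this call was lost in 7 of 20 alternatives. Pgf, a VEGF family ligand that binds Flt1 and Nrp1, read 7.50, 7.52 and 7.51 in tooth germ, against 7.19, 7.32 and 7.23 in oral tissue. Its groups were apart (0.26, SE 0.054, limma adjusted p = 0.0122, and a difference of 0.57 after background subtraction), with the call lost in 4 of 20 alternatives, all of which left out libraries. The dim Mical2, an actin-oxidising enzyme of the family that acts downstream of plexins, read 7.15, 7.18 and 7.12 in tooth germ and 6.91, 6.91 and 6.96 in oral tissue, a difference of 0.22 (SE 0.036, limma adjusted p = 0.0028). It was 0.69 after background subtraction and 0.12 as the mean of its probes. That call was lost without both libraries of litter 2 (adjusted p = 0.0511). Counts of these 41 genes called fell to 2 without oral tissue library 1, without oral tissue library 3 or without any 1 litter. The count over all genes fell as well when libraries were left out.

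The VEGF side of Nrp1 showed no further call. Vegfa read 10.03, 9.87 and 9.73 in tooth germ and 10.06, 10.03 and 9.90 in oral tissue, with overlapping groups and a log2 difference of -0.12 (95% interval -0.33 to 0.09). The VEGF receptor genes Flt1 (-0.17, -0.37 to 0.03), Flt4 (-0.08, -0.18 to 0.02) and Kdr (-0.01, -0.09 to 0.08) were not called, and the probes of Flt4 and Kdr were dim. The integrin subunit Itgb1, a receptor part for Sema7a, differed by -0.12 (-0.28 to 0.05), also without a call.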

How the data were processed

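RNA of 6 libraries was hybridised to Illumina bead arrays of 1 colour. The deposited table holds a log2-scale signal for each probe. The submitters' processing notes name lumi 2.8.0, and its transformation and background correction are not given in the sources used here, so dim genes may have their fold understated. The sorted columns differed by at most 0.000827, so the authors' quantile normalization was kept.

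Of 45281 probes, 34885 had 1 gene symbol in the platform annotation, 18 had several and 10378 had none. The probe with the highest mean was kept for each of 19057 genes. The Entrez identifiers of all 30 genes matched RefSeq, and 0 symbols changed. Groups by title were fitted in limma 3.58.1 under R 4.3.3 (eBayes with a mean-variance trend), with Benjamini-Hochberg adjustment over all genes. The test was also run on simulated data with independent arrays and no litter effect, and the outcome is not given here.

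Libraries of the same number share a litter per the labels. Deviations from the group means over 9528 genes correlated at 0.413, 0.233 and 0.266 in the 3 numbered pairs, and at -0.267 to -0.0724 otherwise. Such deviations cancel out within each group, so the negative values are not independent of the positive ones. The 20 alternatives were a litter block (leaving 2 residual degrees of freedom) or random litter effect, a second quantile normalization, median centring, background subtraction (the 1st percentile of each array's linear signals, with 16 added before log2), dim genes left out, probes averaged or tested singly, other variance models, array weights, and each library or litter left out. Separate pools are called biological replicates in the labels. No array batch is given in the sources used here. The genes, lists and alternatives were chosen with earlier results of these data known. Every gene called in either fit is given in every library, and the partner genes called are named.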

Additional observations from a re-analysis of the deposited data

How the results depend on the processing

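No call among the 30 genes or the 4 named partners reversed under 20 alternatives. The fit with litter (the replicate number) as a block called 10 of the 30 genes and 1693 of all genes, against 6 and 1107 without it. The random litter effect called 10 of the 30 and 1430 of all genes. The block changed no call of a partner gene. Leaving out 1 library or 1 litter gave 3 to 6 of the 30 genes, 549 to 1025 of all genes and 2 to 4 of the 41 partner genes. In the other alternatives 4 to 7 of the 30 genes were called. Nrp1, Plxna2 and Sema6b were called in all 20. With all probes averaged, Sema3a (0.26, adjusted p = 0.06) and Sema5a (-0.09, adjusted p = 0.45) were not called. Dim probes enter both means, and that of Sema5a also takes in a second bright probe that differed by -0.19. Without a variance trend Sema3c was not called (adjusted p = 0.106), and the cause was not tested. With dim genes left out 24 of the 30 genes remained, and 6 were called, beside 1164 of the 12150 genes kept in all. Background subtraction enlarged the differences of Sema7a (0.70) and Sema3b (-0.70), without a further call. Of the 30 genes 10 lie below the median gene, where signal over background limits what can be detected.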
